A study of Mus musculus with 32 samples.

Results

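The transcriptional response of megakaryocyte-erythroid progenitors (MEP) to 7 days of ruxolitinib was described in bone marrow cells driven by the Jak2V617F mutation. The 3 ruxolitinib MEP libraries were compared with the 3 vehicle MEP libraries whose titles end in c, called batch C here. Titles of treated libraries carry no such letter, so the labels do not place them in a batch. Compared were the genes whose CPM (counts scaled to the total of each library) averaged at least 10 across these 6 libraries. This rule kept 7670 of the 33924 genes in the table, and 6 of the 32 libraries of the series entered the main comparison. Just inside the limit lay 2810021B07Rik, with group means of 9.34 CPM in vehicle and 10.7 CPM under ruxolitinib. The nearest gene outside was 9830144P21Rik, with means of 15.7 and 4.27.

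All groups carried the genotype that the labels write Jak2v617f. The mutant allele had been switched on outside the body with mRNA for the recombinase Dre, and the cells were then transplanted into lethally irradiated recipients. Recipients received vehicle, ruxolitinib or tamoxifen, which activates Cre and deletes the mutant allele. MEP and LSK cells (the lineage-negative fraction with Sca1 and Kit that holds stem and multipotent progenitor cells) were sorted from each. The vehicle libraries are titled day 0 and the ruxolitinib libraries day 7, so treatment and day cannot be told apart. The labels do not state the dose of ruxolitinib, the ages of the mice, the share of mutant cells in the sorted fraction or the residual host cells. The 3 vehicle columns bear the animal numbers 12, 32 and 33, which also appear on MEP vehicle libraries of batch A, and the ruxolitinib columns are numbered 1 to 3. Nothing in the labels says that the vehicle and ruxolitinib animals came from the same litter or transplant.

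JAK2 is the kinase bound to the erythropoietin receptor and related cytokine receptors. Once active it phosphorylates STAT5, which enters the nucleus and turns on genes that include the feedback inhibitor Cish. The V617F change makes the kinase active without ligand and drives myeloproliferative neoplasms. Ruxolitinib blocks JAK1 and JAK2, and JAK1 also carries the signal of interferon receptors to STAT proteins, so that interferon-stimulated genes are known targets of the drug in many cells. MEP give rise to red cells and platelets and are conventionally sorted as Sca1-negative, CD34-low progenitors. The labels do not state the gate used.

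Total counts ran from 34392354 to 39667533 in the vehicle libraries and from 40278670 to 55473241 under ruxolitinib. MEP markers were high in all 6 libraries. The 10 MEP and erythroid progenitor markers summed to 10800 to 11633 CPM in vehicle and 10260 to 12534 CPM under ruxolitinib, and all 10 passed the CPM minimum. Among them Kit (311 and 451 CPM on average) was higher in LSK libraries, at 925 CPM, and the rest were lower there. Of the LSK markers Ly6a (at most 0.324 CPM) and Procr (at most 0.640 CPM) were near 0. Mllt3, however, was at 50.9 to 72.6 CPM, and Cd34 and Meis1 reached 44.6 and 50.7 CPM under ruxolitinib. The vehicle libraries were less alike than the treated ones. Correlations of log CPM over genes, which are descriptions within these libraries, were 0.908 to 0.942 between vehicle libraries, 0.975 to 0.989 between ruxolitinib libraries and 0.895 to 0.925 between groups. The median standard deviation (SD) of log2(CPM + 1) was 0.304 in vehicle and 0.168 under ruxolitinib. The labels do not state that libraries are separate transplants, so p-values measure the spread between these libraries.

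The genes called between the groups were few and lay in both directions. By edgeR's quasi-likelihood test with Benjamini-Hochberg adjustment over the 7670 genes, 99 genes (1.29% of those tested) passed an adjusted p of 0.05, of which 38 (0.495%) were higher and 61 (0.795%) lower under ruxolitinib. The median log2 change over all genes was -0.01. In all 99 the 3 ruxolitinib libraries lay on one side of the 3 vehicle libraries, as they did in 1907 of the 7670 genes (24.9%), 802 above (10.5%) and 1105 below (14.4%). Of the higher genes, 19 averaged under 10 CPM in vehicle, and 15 of the lower genes averaged under 10 CPM under ruxolitinib. These genes passed the minimum through their high group, and their number carries no weight of its own.

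How many genes were called rested on single libraries. Without vehicle 3 the number rose to 890, without vehicle 1 it was 146, and without vehicle 2 it was 2. Leaving out ruxolitinib 1, 2 or 3 left 18, 1 and 1 calls. The sign of all 99 was kept each time, but their groups were separate, so leaving out 1 library could hardly turn it. The kept signs carry no weight of their own. DESeq2 called 591 genes (238 higher and 353 lower) and a fit of all 16 MEP libraries called 848 (245 and 603), and these included 99 and 98 of the 99. The 16-library fit treated all libraries as independent, although vehicle libraries of batches A and C share animal numbers. Its calls, here and below, therefore cannot be read as those of independent animals. Lower genes had longer transcripts: the median longest transcript was 6168 bases in the 55 lower genes with a GENCODE length, 3030.5 bases in 36 higher genes and 3379.5 bases over all 6920. Across those genes the log2 change correlated with log2 transcript length at r = -0.315 and with GC content at r = 0.201, both within these libraries. These 6920 genes hold 91 of the 99. With an offset for transcript length 58 of them were called, 32 higher and 26 lower, so the direction of the split turned, and 53 of the 58 were among the 99. With an offset for GC content 77 were called, 29 higher and 48 lower, and 56 of the 77 were among the 99. The part of RNA quality or library preparation in these differences was not tested.

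**Figure D1:**
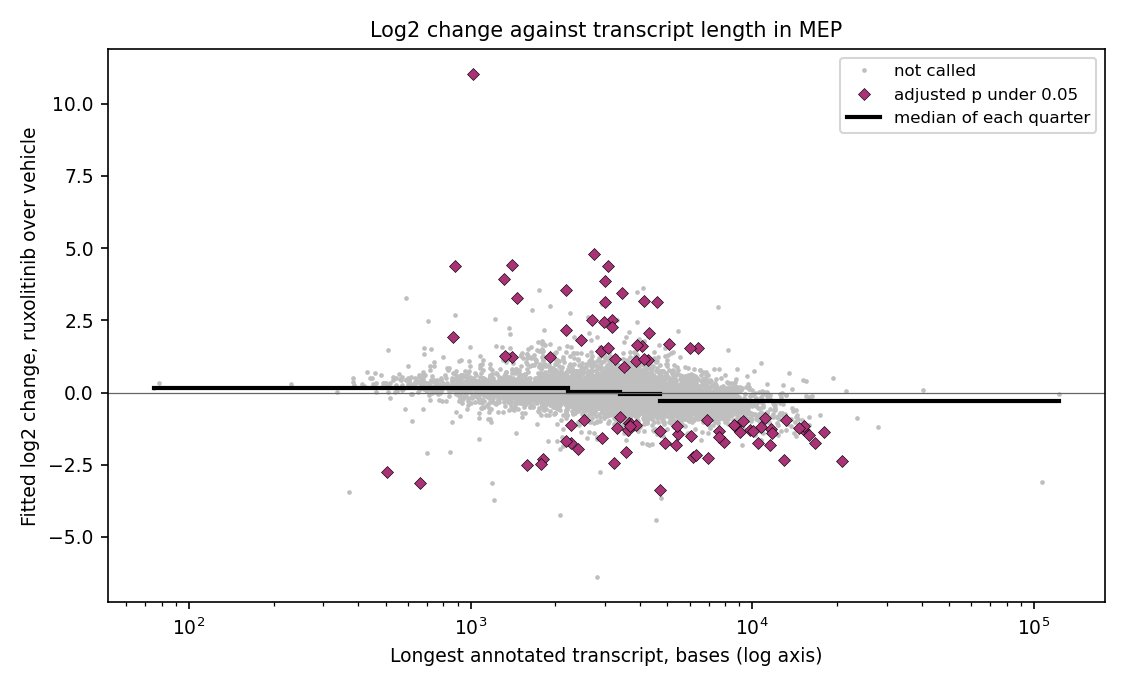
Fitted log2 change (ruxolitinib over vehicle, y axis) of each gene against the length in bases of its longest annotated transcript (x axis, log scale); diamonds are genes with an edgeR adjusted p under 0.05 and black bars the medians of 4 equal bins by length. The medians step from 0.16 in the shortest bin over 0.03 and -0.04 to -0.29 in the longest, and the called genes under 0 extend further to the right than those above it.

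Jak2 itself, on chromosome 19 at 29251828 to 29313080 in mm10 (GENCODE M21 annotation, a protein-coding gene), was measured at 16.6, 32.6 and 21.03 CPM in vehicle and 12.3, 12.7 and 21.9 CPM under ruxolitinib. The groups overlapped, and the log2 change of -0.58 ± 0.34 (SE) did not pass (edgeR adjusted p = 0.39, n = 3 against 3). The counts cannot separate the mutant from the normal allele. Of the 11 genes for JAK and STAT proteins, 10 were tested, 1 was called higher and 0 lower, with a list median of 0.29 against -0.01 over all genes. The higher gene was Jak3, the kinase of the common gamma chain receptors of lymphocytes. Jak3 stood at 12.3, 9.87 and 8.02 CPM in vehicle and 23.8, 37.9 and 31.5 CPM under ruxolitinib, a log2 change of 1.62 ± 0.27 (edgeR adjusted p = 0.0352). The transcripts of Stat5a and Stat5b, the factors that JAK2 activates, were not called. Stat5a was at 177, 171 and 178 CPM in vehicle and 232, 247 and 214 CPM under treatment. Stat5b was at 67.4, 71.8 and 107 CPM against 155, 149 and 119 CPM. In both the groups did not overlap, with log2 changes of 0.40 and 0.78 and edgeR adjusted p of 0.184 and 0.122.

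Of the called members of the STAT5 list, Cish fell most. Cish encodes a SOCS-family protein that binds activated cytokine receptors and limits their signal. The stretch around its start in the RefSeq promoter table (GRCm38.p6, chr9:107296559-107296678, plus strand, 100 bases before and 20 from the listed start) is shown because it holds a pair of the STAT motif TTCNNNGAA, in capitals, which reads the same on both strands:
Cish: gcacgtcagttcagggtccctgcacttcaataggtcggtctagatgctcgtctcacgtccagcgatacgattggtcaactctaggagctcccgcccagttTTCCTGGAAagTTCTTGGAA
The 2 matches begin 0 and 11 bases from the listed start and do not overlap. At least 1 match occurs in 2722 of 32817 promoters of 300 bases in that table (8.29%), so the letters alone are a description. The gene spans 107296026 to 107302784 of chromosome 9 in the GENCODE annotation, where a transcript begins upstream of the listed start.

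Cish fell under ruxolitinib. It was measured at 26.3, 17.7 and 10.5 CPM in vehicle and 2.36, 1.25 and 1.60 CPM under ruxolitinib, 10.5-fold lower with a log2 change of -3.39 ± 0.43 (edgeR adjusted p = 0.0207). The vehicle values varied over 2-fold among themselves, yet the lowest was well above the highest treated value. The second member of the STAT5 list to fall was Osm, oncostatin M, a cytokine gene induced by STAT5 in blood cells. Osm went from 56.8, 48.8 and 41.8 CPM to 21.6, 25.2 and 21.3 CPM, a log2 change of -1.12 ± 0.20 (adjusted p = 0.0445). Of the 23 genes in the list 11 were tested, 2 were lower and 0 higher, and the list median was -0.10. Pim2, a survival kinase, stayed within its spread at 13.3, 12.0 and 12.0 CPM against 13.0, 16.6 and 13.8 CPM (log2 change 0.22 ± 0.23, adjusted p = 0.632). The survival genes Bcl2l1 (0.23) and Mcl1 (-0.26), the growth regulator Myc (0.33) and the cyclin Ccnd2 (-0.12) did not pass either, and neither did Ccnd3 (0.06), Tnfrsf1b (0.27), Gfi1b (-0.10) or Cdkn1a (-4.25, described with the p53 targets). The other 12 members lay under the CPM minimum. Among them Socs2, a negative regulator related to Cish, was at 12.7, 17.3 and 14.4 CPM in vehicle and 2.85, 3.10 and 2.48 CPM under ruxolitinib, and did not enter the main fit because its mean over the 6 libraries was 8.80. Pim1 (2.01 and 0.502 CPM on average) and Socs3 (0.242 and 0.421 CPM) were close to silent in MEP.

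Gab2, Irs2, Plek2 and Podxl, which are not in the STAT5 list, were also called lower. Gab2, a docking protein that connects JAK2-coupled receptors to PI3 kinase and the phosphatase SHP2, was at 59.5, 39.6 and 48.3 CPM in vehicle. It was at 10.4, 10.9 and 10.3 CPM in the treated libraries, 4.67-fold lower (log2 change -2.22 ± 0.23, edgeR adjusted p = 0.0195). Gab2 was the only gene called among 17 tested receptors and adaptors, of 28 listed, and the list median was 0.05. The erythropoietin receptor Epor, at 292, 387 and 272 CPM against 343, 342 and 285 CPM, overlapped between the groups (log2 change 0.03). Irs2, an adaptor of the insulin receptor, fell by 2.15 on the log2 scale, from 22.1, 33.1 and 16.3 CPM to 7.07, 5.57 and 3.44 CPM (adjusted p = 0.0376). Plek2, pleckstrin 2, a cytoskeletal protein of red cell precursors, went from 16.6, 55.0 and 41.2 CPM to 7.16, 6.18 and 6.39 CPM, a log2 change of -2.52 ± 0.41 (adjusted p = 0.0341). Vehicle 1 was the lowest of its group for Plek2, at over 2 times the highest treated value. Podxl, a sialomucin of progenitors that was named after its values were seen, stood at 71.9, 130 and 57.0 CPM against 24.3, 22.8 and 27.2 CPM (log2 change -1.80 ± 0.31, adjusted p = 0.0369).

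**Figure D2:**
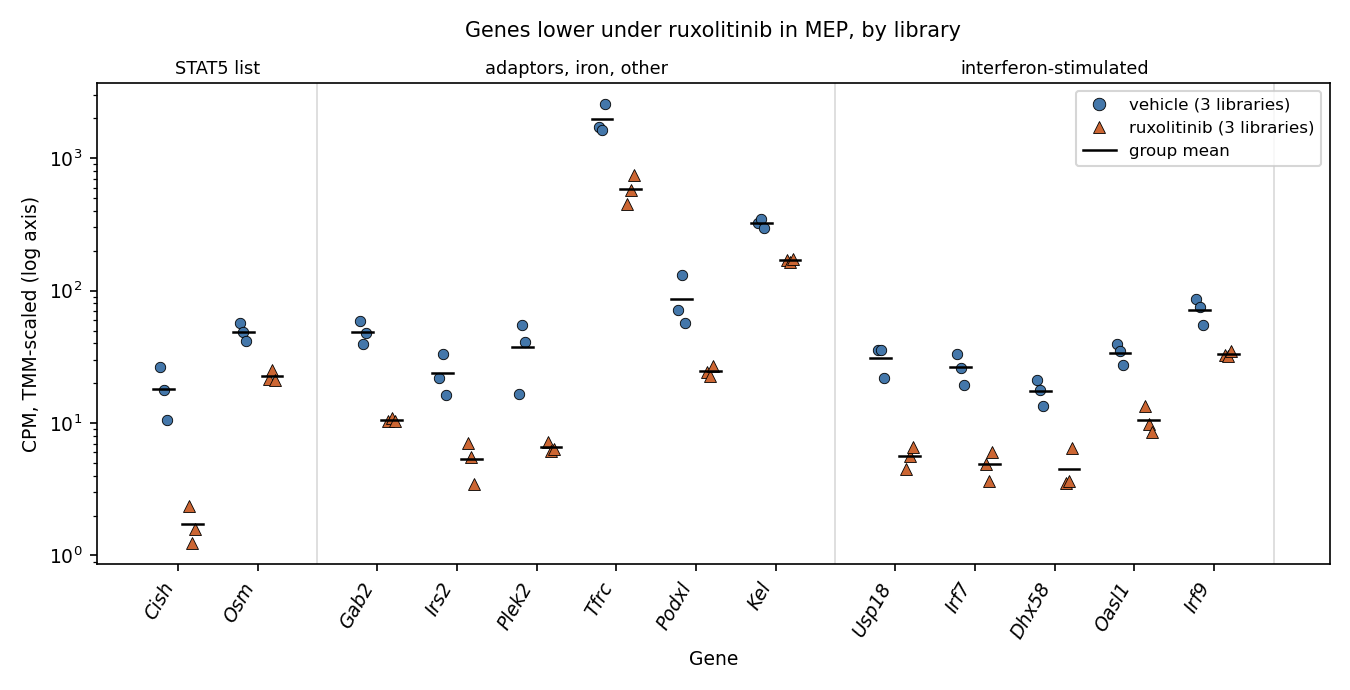
CPM (TMM-scaled, log axis) in each of the 3 vehicle (circles) and 3 ruxolitinib (triangles) MEP libraries for 13 called genes; black bars are group means. In every gene shown the triangles lie under all circles, from Cish with 1.25 to 2.36 CPM under treatment to Tfrc with 452 to 741 CPM.

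By the number of edgeR calls, interferon-stimulated genes formed the largest group of related falls among the lists examined. The medians of the p53 target list (-1.07) and the erythroid membrane and globin list (-0.58) were lower. Of 59 listed interferon-stimulated genes 32 were tested, 5 were lower and 0 higher, and the list median was -0.51. In 16 all treated libraries lay below all vehicle libraries and in 2 above, against 14.4% and 10.5% of all genes. At an unadjusted p under 0.05, 14 were lower and 1 higher, where 1442 of all 7670 genes (18.8%) passed, 861 lower (11.2%) and 581 higher (7.57%). The median is not independent of the CPM minimum, since 5 of the 32 averaged under 10 CPM under ruxolitinib and entered through vehicle. DESeq2 called 11 lower and 1 higher. Usp18, a protease that removes ISG15 and dampens interferon receptor signalling, was at 35.7, 35.8 and 21.7 CPM in vehicle and 4.53, 5.69 and 6.56 CPM under ruxolitinib (5.56-fold lower, log2 change -2.48 ± 0.29, edgeR adjusted p = 0.0195). Irf7, the master factor of type I interferon induction, was at 33.4, 26.1 and 19.5 CPM against 4.95, 3.64 and 6.09 CPM (log2 change -2.43 ± 0.31, adjusted p = 0.0218). In both genes the lowest vehicle library was over 3 times the highest treated one. Dhx58, the cytosolic RNA sensor LGP2, fell from 21.3, 17.7 and 13.4 CPM to 3.50, 3.62 and 6.44 CPM, and Oasl1, a 2'-5' oligoadenylate synthetase-like protein, from 39.6, 34.9 and 27.7 CPM to 13.4, 9.80 and 8.58 CPM. Their log2 changes were -1.95 and -1.68 (adjusted p = 0.0373 and 0.0304). Irf9, a DNA-binding partner of STAT proteins in the interferon response, named as the remaining called member, was at 86.1, 75.3 and 54.6 CPM against 32.8, 32.2 and 35.1 CPM (log2 change -1.11, adjusted p = 0.0491). Vehicle 3 was the lowest vehicle library for all 5 genes.

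The fall did not extend over the whole list. Stat2 was level at 41.7, 42.0 and 43.4 CPM against 46.0, 35.8 and 47.3 CPM (log2 change 0.02). The class I antigen presentation genes H2-D1 and H2-K1, the most abundant members tested, both had log2 changes of 0.28 with overlapping groups. Without vehicle 1 the list gave 3 lower and 1 higher genes, and without vehicle 2 or any 1 ruxolitinib library it gave 0, while its median lay between -0.46 and -0.56 in the fits that left out 1 library. At a mean CPM of at least 20 the list had 27 genes tested, 1 lower and a median of -0.31, and with no filter 7 of the 32 were lower and 3 higher, with a median of -0.24. Among markers of immune cells, the T cell genes Cd3d, Cd3e and Cd3g were at most 0.989 CPM. The whole T and NK cell set summed to 8.67 to 40.4 CPM in vehicle and 63.4 to 94.1 CPM under ruxolitinib. In it Nkg7 had means of 12.4 and 74.8 CPM. The macrophage markers summed to 7.99 to 15.3 CPM in vehicle and 9.38 to 12.1 CPM under ruxolitinib, and the B and plasma cell markers to 3.15 to 10.5 and 4.92 to 6.96 CPM. The part of such cells in the interferon falls was not tested.

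Genes known from less committed, megakaryocytic and granulocytic progenitors were among the largest rises. In these bulk libraries a larger share of cells of a type and more RNA per cell cannot be told apart. Cd34, a surface sialomucin of stem and early progenitor cells, was at 2.38, 1.58 and 0.292 CPM in vehicle and 9.41, 33.5 and 44.8 CPM under ruxolitinib (log2 change 4.37 ± 0.80, edgeR adjusted p = 0.0445). Ifitm1, an interferon-inducible membrane protein that is also high in stem and primitive progenitor cells, was at 4.73, 1.92 and 1.05 CPM against 40.4, 49.1 and 68.7 CPM (4.36 ± 0.55, adjusted p = 0.0207). Its rise stands opposite to the fall of Irf7 and Usp18. Gimap6, a GTPase of immune cells, rose from 5.67, 3.34 and 2.33 CPM to 15.0, 19.5 and 30.6 CPM. These were the 3 higher genes among 10 tested of 36 listed stem and multipotent progenitor genes, with 0 lower. All 3 averaged under 10 CPM in vehicle, as did 5 of the 10, so they entered through the ruxolitinib group and the CPM minimum fixed their direction. At a mean CPM of at least 20 the list had 6 genes tested, 1 higher and a median of 0.50, against 1.93 over the 10. Meis1, a homeobox factor of stem cells and megakaryocytes, at 8.15, 2.54 and 2.16 CPM against 21.8, 26.7 and 50.9 CPM, narrowly missed the threshold (log2 change 2.95, adjusted p = 0.0517). Mllt3, in contrast, was level at 60.7, 60.6 and 69.3 CPM against 61.4, 53.5 and 72.9 CPM.

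Itga2b, the platelet integrin alpha IIb (CD41), was the 1 called gene among 12 tested of 36 megakaryocyte and platelet genes. It rose from 15.7, 5.40 and 6.49 CPM to 71.7, 103 and 126 CPM, 10.9-fold, with a log2 change of 3.45 ± 0.44 (edgeR adjusted p = 0.0214). The list had a median of 1.13, and 7 of its 12 tested genes, Itga2b among them, averaged under 10 CPM in vehicle and entered through the ruxolitinib group. Pf4, platelet factor 4, at 12.7, 3.76 and 0.656 CPM against 28.0, 51.8 and 84.3 CPM, did not overlap between the groups and did not pass (adjusted p = 0.113). Vwf, von Willebrand factor, and Gp9, also platelet genes, overlapped between the groups. DESeq2 called 6 of the 12 higher, and the fit of 16 MEP libraries also 6.

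Of 32 granulocyte and monocyte progenitor genes 4 were tested and 2 were higher. Both, and 3 of the 4, averaged under 10 CPM in vehicle, and their direction was fixed in the same way. Mpo, the myeloperoxidase of primary granules, had the largest rise under the naming rule, from 2.32, 3.45 and 0.584 CPM to 16.7, 84.0 and 75.3 CPM (27.8-fold, log2 change 4.80 ± 0.78, edgeR adjusted p = 0.0341). Lyz2, lysozyme, went from 2.87, 1.30 and 0.608 CPM to 12.6, 27.8 and 33.1 CPM (3.95 ± 0.61, adjusted p = 0.0296). Ruxolitinib 1 was the lowest treated library for Mpo, Lyz2 and Cd34. Some markers of other cells moved with these genes. The 10 granulocyte and monocyte markers summed to 4.54 to 15.9 CPM in vehicle and 41.8 to 138 CPM under ruxolitinib, with Prtn3 reaching 15.1 CPM, Elane at most 1.39 CPM and the mature neutrophil genes S100a8 and S100a9 under 0.6 CPM in all 6 libraries. The 10 megakaryocyte markers summed to 31.3 to 79.1 and 179 to 362 CPM, and the 10 LSK markers to 82.8 to 93.2 and 108 to 190 CPM. In the last set 6 of the 10 had a higher mean under ruxolitinib. Only Cd34 (means of 1.46 and 28.5 CPM) and Meis1 (4.45 and 32.4) lay above vehicle in all treated libraries. Mecom (3.40 and 1.68 CPM), Flt3 (2.93 and 2.23), Mllt3 (65.3 and 61.1) and Procr had lower means. Hlf (at most 2.28 CPM), Ly6a and Procr stayed near 0. The mast cell, basophil and eosinophil sum was 4.76 to 13.9 and 15.7 to 44.2 CPM. Only 4 of its 10 markers had a higher mean under ruxolitinib, Cpa3 most (0.700 and 12.2 CPM). In all treated libraries 3 lay above vehicle and 2 below. The T and NK cell sum was 8.67 to 40.4 and 63.4 to 94.1 CPM. It rose through Nkg7 alone, while 5 of its other markers were lower in all treated libraries. Stroma and endothelium markers summed to 18.5 to 28.0 and 16.3 to 16.9 CPM. None of these sums overlapped, and each gave the smallest p that 3 against 3 allows (two-sided exact permutation test, p = 0.1). The part of a shifted cell mixture in the rises was not tested.

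Further rises under the naming rule did not share 1 lineage. Apoe, the lipid carrier apolipoprotein E, was at 8.07, 15.5 and 37.5 CPM in vehicle and 533, 354 and 432 CPM under ruxolitinib, the highest treated level among the 12 largest rises (21.6-fold, log2 change 4.43 ± 0.54, edgeR adjusted p = 0.0195). Fxyd5, a regulator of the sodium pump, Gmfg, an actin regulator of blood cells, and Scin, the actin-severing protein scinderin, rose by log2 3.88, 3.54 and 3.15. Atp2a3, the endoplasmic calcium pump of platelets and lymphocytes, went from 11.1, 5.17 and 5.84 CPM to 50.5, 69.2 and 74.9 CPM (3.14 ± 0.34, adjusted p = 0.0195). Prss50, a serine protease of the testis, went from 0.746, 2.37 and 3.60 CPM to 27.6, 22.3 and 16.04 CPM, and the adhesion receptor Gpr97 from 8.62, 2.60 and 3.06 CPM to 21.6, 34.7 and 41.4 CPM. Named after their values were seen, Tmsb4x, the actin-binding thymosin beta 4, and Zyx, the focal adhesion protein zyxin, rose by log2 1.93 and 2.27. The groups were separate in each.

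**Figure D3:**
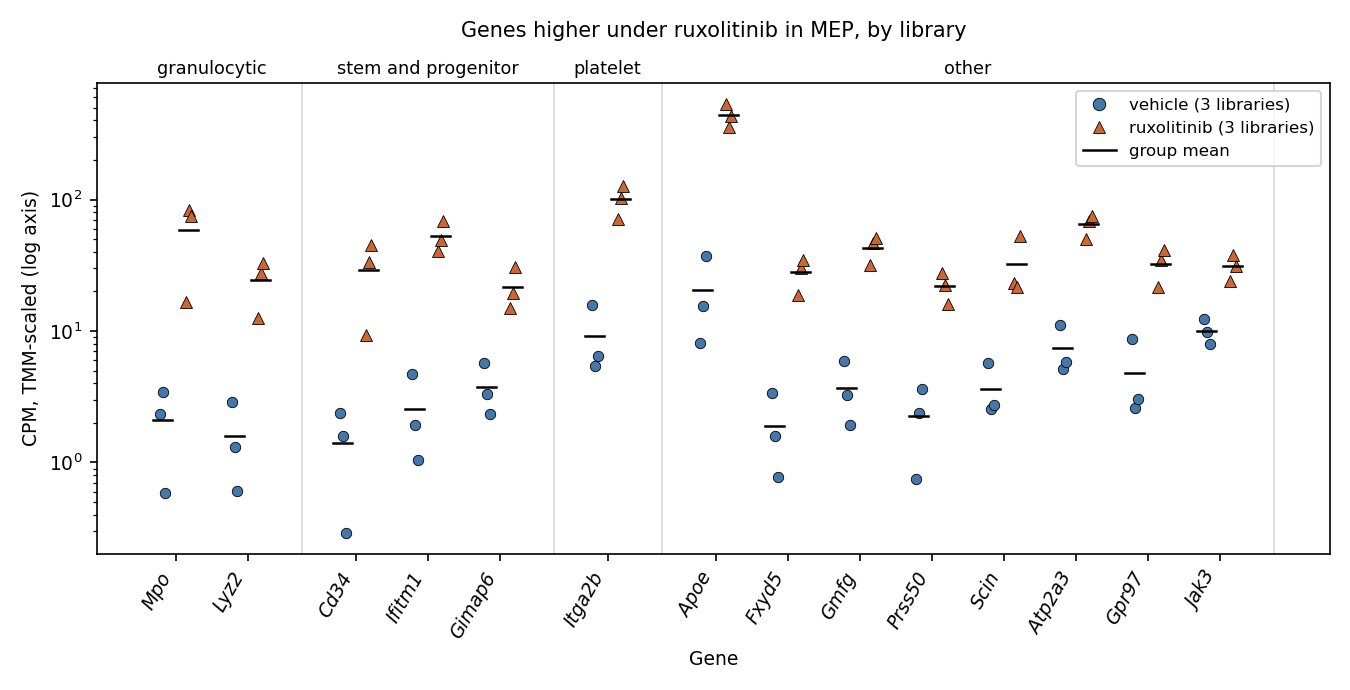
CPM (TMM-scaled, log axis) in each of the 3 vehicle (circles) and 3 ruxolitinib (triangles) MEP libraries for 14 called genes; black bars are group means. All triangles lie above all circles, with Apoe highest at 354 to 533 CPM under ruxolitinib and Cd34 reaching down to 0.292 CPM in vehicle.

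Few erythroid genes were called by edgeR, although most membrane and globin genes had values below 0. The most abundant called gene was Tfrc, the transferrin receptor that brings iron into red cell precursors. It was at 1732, 1631 and 2547 CPM in vehicle and 452, 577 and 741 CPM under ruxolitinib, a log2 change of -1.74 ± 0.25 (edgeR adjusted p = 0.0265). It was the only gene called among 27 tested of 32 heme and iron genes, whose median was -0.10 (0.05 without vehicle 2, 0.06 with filterByExpr and 0.17 with no filter). The ferritin genes Fth1 (-0.05) and Ftl1 (0.24), which store iron, overlapped between the groups. Of 31 erythroid membrane and globin genes 19 were tested, 1 was lower and 0 higher. The lower one was Kel, the Kell blood group protein, at 327, 348 and 299 CPM against 170, 166 and 173 CPM (log2 change -0.93 ± 0.14, adjusted p = 0.0289). The list median was -0.58, and 17 of 19 values were below 0. In 8 genes all treated libraries lay below all vehicle libraries and in 1 above, against 14.4% and 10.5% of all genes. At an unadjusted p under 0.05, 11 were lower and 1 higher, against 11.2% and 7.57% of all genes. DESeq2 called 4 lower and 1 higher, and without vehicle 3 edgeR called 8 lower. The carbonic anhydrase Car1 was at 4229, 4343 and 3172 CPM against 5564, 5539 and 7269 CPM (log2 change 0.65, adjusted p = 0.142). In late erythroid genes vehicle 2 was far above the rest. Slc4a1, the red cell anion exchanger band 3, was at 171 CPM in vehicle 2, at 2.96 and 6.78 CPM in the other vehicle libraries and at 1.97 to 3.72 CPM under ruxolitinib. Hba-a1, alpha globin, was at 488 CPM in vehicle 2 and between 33.2 and 61.9 CPM in the other 5 libraries. For Hbb-b1, beta globin, the groups did not overlap: it was at 34.1, 286 and 45.5 CPM in vehicle and 15.4, 21.5 and 10.8 CPM under ruxolitinib (-2.94 ± 0.78, adjusted p = 0.11). Alas2, the erythroid enzyme of heme synthesis, lay under the CPM minimum and was also lower in each treated library, at 8.87, 29.1 and 5.12 CPM against 4.79, 3.52 and 3.30 CPM. Without vehicle 2 the list median was -0.26 and no member was called. The mature red cell markers summed to 237 to 1125 CPM in vehicle and 211 to 240 CPM under ruxolitinib.

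Of the 23 erythroid and megakaryocyte transcription factors 21 were tested and 0 were called by edgeR, with 4 higher and 2 lower at an unadjusted p under 0.05 (7.57% and 11.2% over all genes). DESeq2 called 3 higher. Gata1, the master factor of the lineage, was level at 780, 835 and 542 CPM against 716, 680 and 629 CPM (log2 change -0.09). Klf1, its erythroid partner, was at 98.8 CPM in vehicle 1, 529 and 583 CPM in the other vehicle libraries and 1050.1, 955 and 762 CPM under ruxolitinib, and did not pass (1.19 ± 0.53, adjusted p = 0.274).

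Few cell cycle genes were called either. All 40 mitosis and spindle genes were tested, with 1 lower, 0 higher and a median of -0.13. Values were below 0 in 31 of the 40. At an unadjusted p under 0.05, 8 were lower and 0 higher, against 11.2% and 7.57% of all genes. The called gene was Cenpf, a kinetochore protein, at 80.8, 91.3 and 88.0 CPM against 51.4, 41.4 and 48.1 CPM (log2 change -0.88 ± 0.17, edgeR adjusted p = 0.0491). Its longest transcript has 11130 bases. No mitotic gene was called with the length offset, RLE factors, the GC offset or a mean CPM of at least 20. DESeq2 called 2 lower and the fit of 16 MEP libraries 5. Mki67, the proliferation marker, which was in no list and was named after its values were seen, went from 450, 784 and 445 CPM to 231, 187 and 244 CPM (adjusted p = 0.0445). Cyclin B, Ccnb1, did not change with them, at 598, 729 and 703 CPM against 704, 604 and 635 CPM (-0.06). Among 43 DNA replication genes Pold1, the catalytic subunit of polymerase delta, was the 1 called gene, higher at 612, 580 and 487 CPM than at 315, 308 and 295 CPM (0.87 ± 0.15, adjusted p = 0.0344).

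All 76 tested genes for cytosolic ribosomal proteins had log2 changes above 0, from 0.19 to 0.98 with a median of 0.45, and 0 were called by edgeR or DESeq2. At an unadjusted p under 0.05, 22 were higher, against 7.57% of all genes. The fit of 16 MEP libraries called 6 higher, filterByExpr 19 and no filter 57, the latter pair with the median of the 7670 genes itself at 0.12 and 0.25. Their share of counts was 3.70% to 5.73% in vehicle and 5.13% to 6.73% under ruxolitinib. With the length offset the median was 0.28. Of 72 nuclear genes of oxidative phosphorylation 63 had values above 0 (median 0.23), 0 were called by edgeR, 8 were higher at an unadjusted p under 0.05 (7.57% of all genes) and DESeq2 called 1. The fit of 16 MEP libraries called 3, filterByExpr 2 and no filter 19. With the length offset that median was 0.03. Among the 27 tested genes of the unfolded protein and heat shock lists, Edem1, which directs misfolded glycoproteins to degradation, was the 1 called, at 18.6, 18.1 and 17.7 CPM against 4.84, 7.72 and 6.78 CPM (-1.49 ± 0.26, adjusted p = 0.0381). The abundant chaperones Hspa8 (0.42) and Hsp90ab1 (0.25) had separate groups and did not pass.

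No gene was called by edgeR in the lists for cholesterol and fatty acid synthesis (32 tested, median -0.25), ATF4 stress and amino acids (28, median 0.14), glycolysis (15, median 0.20), ribosome biogenesis and MYC targets (40, median 0.08), proteasome subunits (34, median 0.14), cyclins and inhibitors of G1 (16, median -0.10), the BCL2 family (8, median -0.02), genes that cooperate with JAK2 in neoplasms (18, median -0.17), mitochondrially encoded genes (10, median 0.01), immediate early genes (6, median 0.19), outputs of the MEK-ERK pathway (3, median 0.62) and mast cell, basophil and eosinophil genes (1). At an unadjusted p under 0.05 the cholesterol list had 8 lower and 0 higher genes, against 11.2% and 7.57% of all genes, and DESeq2 called 3 of them lower. In each of the other 11 lists at most 3 genes were higher and at most 3 lower at that level, and DESeq2 called 4 genes of the ATF4 list, 3 of those that cooperate with JAK2, 1 each among G1, BCL2 and mast cell genes and 0 in the rest. Phgdh, the first enzyme of serine synthesis, came nearest of the named genes, at 525, 420 and 427 CPM against 810, 816 and 664 CPM (log2 change 0.74, adjusted p = 0.0717).

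**Figure D4:**
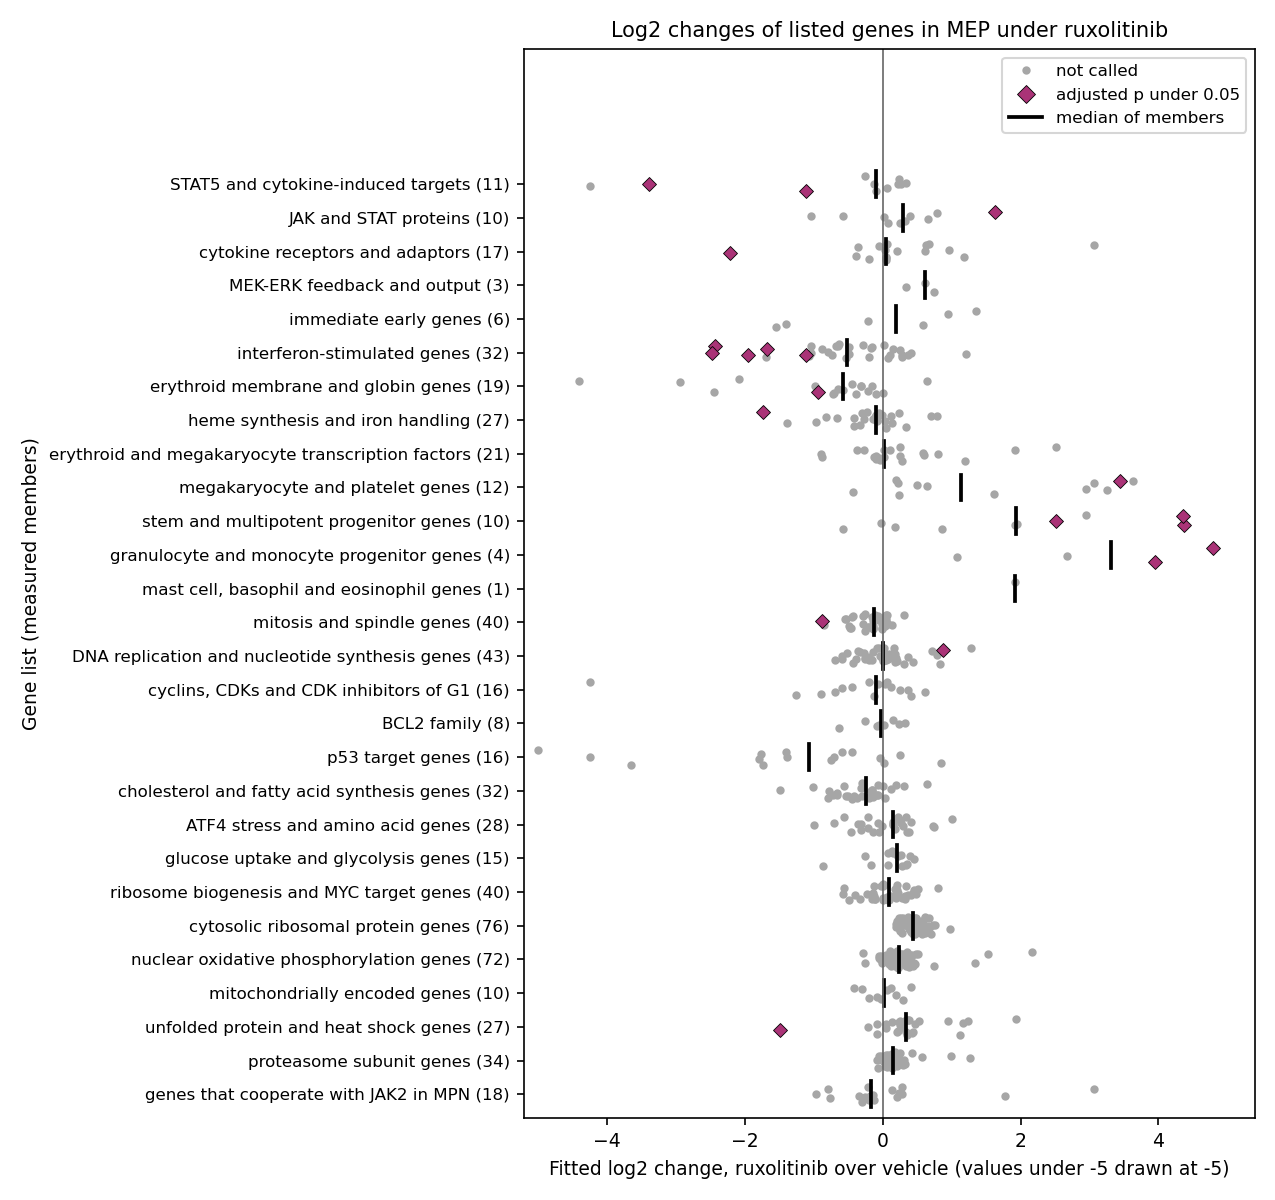
Fitted log2 change (ruxolitinib over vehicle, x axis) of each tested member of 28 gene lists (y axis, number tested in brackets); diamonds have an edgeR adjusted p under 0.05, black bars are list medians, and values under -5 are drawn at -5. Called genes under 0 are most numerous among interferon-stimulated genes (5 of 32), and called genes above 0 among stem and multipotent progenitor genes (3 of 10).

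The p53 target list had a median of -1.07 over 16 tested genes without a call by edgeR, and 9 were lower and 1 higher at an unadjusted p under 0.05 (11.2% and 7.57% over all genes). DESeq2 called 5 lower and 1 higher. The values rested on vehicle 1. Cdkn1a, the cell cycle inhibitor p21, was at 443 CPM in vehicle 1, 24.5 and 33.0 CPM in vehicle 2 and 3, and 11.1, 8.00 and 7.26 CPM under ruxolitinib (log2 change -4.25 ± 1.07, adjusted p = 0.103). Plk2, a stress-induced kinase, was at 59.1 CPM in vehicle 1 and at 1.78 and 2.84 CPM in the others, against 0.133 to 0.446 CPM under treatment. Without vehicle 1 the list median was -0.53, with 3 members lower by edgeR. The batch A vehicle MEP library of the same animal number also stood out, with 459 CPM of Cdkn1a where the other 2 of that group had 24.9 and 48.9 CPM.

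Nuclear and repeat-derived RNA differed between the groups as well. Malat1, a nuclear non-coding RNA, was at 434, 177 and 321 CPM in vehicle and 55.0, 51.3 and 85.6 CPM under ruxolitinib (log2 change -2.28 ± 0.34, edgeR adjusted p = 0.0293). Neat1, the RNA scaffold of paraspeckles, was at 46.5, 62.0 and 34.4 CPM against 9.41, 5.90 and 12.5 CPM (-2.36 ± 0.34, adjusted p = 0.0283). Outside the naming rule, Gm10800, a repeat-derived transcript, was at 529, 1017 and 1435 CPM against 201, 95.2 and 43.8 CPM, and U6, the spliceosomal small nuclear RNA, at 37.8, 63.8 and 31.6 CPM against 10.01, 5.88 and 5.94 CPM. These groups did not overlap. Odorant and pheromone receptor genes, which are silent in marrow, took 0.00910% to 0.0321% of counts in vehicle and 0.00131% to 0.00421% under ruxolitinib. Genes outside the 7670 took 1.74% to 3.28% and 1.39% to 1.49%. These shares moved with the fall of Pkhd1l1 (-2.33), Ttn (-3.09, not called) and the other long or nuclear RNA. Their part in the falls was not tested.

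Some genes separated the ruxolitinib animals from all others whatever the cell type. 3830403N18Rik, a protein-coding gene on chromosome X at 56136572 to 56153498 (plus strand), was at 0.0829, 0 and 0.0486 CPM in vehicle MEP and 76.4, 90.2 and 127 CPM under ruxolitinib. It ranged from 74.7 to 127 CPM in all 6 ruxolitinib libraries, LSK included, and was at most 0.971 CPM in the other 26. It was the only one of 7670 genes with a gap of at least 4-fold in that direction, and 0 genes had one in the other. Cd59a, which protects cells from complement, was at 34.5, 71.2 and 36.96 CPM in vehicle MEP and 12.4, 6.65 and 9.95 CPM under ruxolitinib (log2 change -2.30 ± 0.36, edgeR adjusted p = 0.0322). In LSK cells its CPM was 22.8 and 45.8 in vehicle and 2.18 to 8.18 under ruxolitinib. No animal has libraries both with and without ruxolitinib, so treatment and any other difference between the animals cannot be told apart.

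LSK cells, with 2 batch C vehicle and 3 ruxolitinib libraries, gave the response of another cell type. The difference between the MEP and LSK responses was called for 0 of 7670 genes (0%) by edgeR, with 540 at an unadjusted p under 0.05, and DESeq2 called 41 (33 positive and 8 negative). With only 2 LSK vehicle libraries the design is small. Leaving out MEP vehicle 3 gave 200 calls and MEP vehicle 1 gave 61, LSK vehicle 1 gave 23, MEP ruxolitinib 1 gave 6 and LSK vehicle 2 gave 1. Irf7 fell in both cell types, with a log2 change of -2.50 ± 0.35 in LSK cells (adjusted p = 0.0284) and a difference of 0.11 (95% interval -0.92 to 1.13). Irf9 changed by -1.55 ± 0.23 in LSK cells (adjusted p = 0.0484). For Cish the LSK change was -1.45 ± 0.44 and the difference -1.90 (-3.24 to -0.56, adjusted p = 0.52). The LSK log2 changes of the 12 largest rises ran from -1.47 (Prss50) to 1.47 (Scin), 9 lay within 0.5 of 0, and 0 passed. Those of 4 genes were Itga2b 0.09, Ifitm1 -0.08, Cd34 0.11 and Mpo 0.49, with differences of 3.39, 4.48, 4.31 and 4.36 that did not pass (adjusted p = 0.0555, 0.103, 0.174 and 0.239). Pim2 showed the reverse, with an LSK log2 change of -3.63 ± 0.39 (adjusted p = 0.00317) beside 0.22 in MEP, and the difference of 3.89 did not pass (adjusted p = 0.0529).

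Tamoxifen, which deletes the mutant allele, was the other treatment of the series. In 3 MEP libraries at tamoxifen day 7 and 3 vehicle libraries of batch A, the response was set against that to ruxolitinib. The latter was taken relative to batch C vehicle. The vehicle libraries of the 2 batches share animal numbers and no library, and the labels do not state whether they hold the same RNA. The main fit treated all libraries as independent. With limma voom and the animal as a random block, the within-animal correlation was 0.51 and 2153 genes were called. By edgeR the difference between responses was called for 1665 of 7670 genes (21.7%), 885 positive (11.5%) and 780 negative (10.2%). With the length offset 1131 were called, 785 positive and 346 negative, so the split moved there too. Drug, batch and deletion cannot be told apart in this difference.

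Of the 11 tested STAT5 list genes, Cish and Osm were lower in both responses, and 2 of the 11 differed, both positively. Cish changed by -3.33 ± 0.46 with tamoxifen and -3.39 with ruxolitinib, a difference of -0.05 (95% interval -1.33 to 1.24). Osm (-1.55), Gab2 (-3.06), Irs2 (-2.49) and Plek2 (-2.31) were all lower with tamoxifen, and their differences of 0.45, 0.85, 0.36 and -0.19 did not pass. Pim2 and Ccnd3 changed by -1.43 and -2.20 with tamoxifen (edgeR adjusted p = 0.00492 and 0.0105) beside 0.22 and 0.06 with ruxolitinib, and differed by 1.67 and 2.28 (adjusted p = 0.0156 and 0.0457). Tfrc was lower with both, by -2.77 with tamoxifen and -1.74 with ruxolitinib, a difference of 1.03 ± 0.27 that passed (edgeR adjusted p = 0.0179). Of the 32 interferon-stimulated genes tested, 18 were higher and 1 lower with tamoxifen, with a median of 0.74 against -0.51 with ruxolitinib. The share of all genes called with tamoxifen is not given here, so these counts are a description only. The difference was negative for 17 and positive for 1, H2-D1, against 10.2% and 11.5% of all genes. Irf7 rose by log2 2.25 ± 0.24 with tamoxifen (adjusted p = 3.01e-05) and fell with ruxolitinib, a difference of -4.67 ± 0.34 (adjusted p = 6.32e-06). Usp18 changed by 1.03 with tamoxifen, Dhx58 by 1.63, Oasl1 by 1.32 and Irf9 by 0.96, and the differences of -3.49, -3.57, -2.99 and -2.06 all passed. Stat2 differed by -1.002. Kel rose with tamoxifen by 0.42 and differed by -1.34.

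Among the rises, Itga2b and Ifitm1 had values of 3.49 and 3.90 with tamoxifen, close to the ruxolitinib values, with differences of -0.04 (95% interval -1.37 to 1.28) and 0.47 (-1.15 to 2.10). Mpo, Apoe and Cd34 had tamoxifen changes of 1.95, 1.81 and 1.51, and their differences of 2.86, 2.63 and 2.87 passed (edgeR adjusted p = 0.0337, 0.0196 and 0.0319). Atp2a3 differed by 2.62 and Jak3 by 2.80, the latter with -1.17 under tamoxifen. The largest positive differences belonged to genes that were low at tamoxifen day 7: the ferritin heavy chain Fth1 (5.13), the peptidase Thop1 (5.01), Zfp574 (4.53), Fam195a (4.43) and the biopterin enzyme Spr (4.42). Of these 5, Zfp574 alone was called with ruxolitinib, at 33.5, 44.6 and 44.3 CPM against 99.8, 102 and 73.4 CPM. The largest negative differences were Fau-ps2 (-4.74), Irf7, the titin gene Ttn (-4.17), Dhx58 and the oligoadenylate synthetase Oas1a (-3.50).

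**Figure D5:**
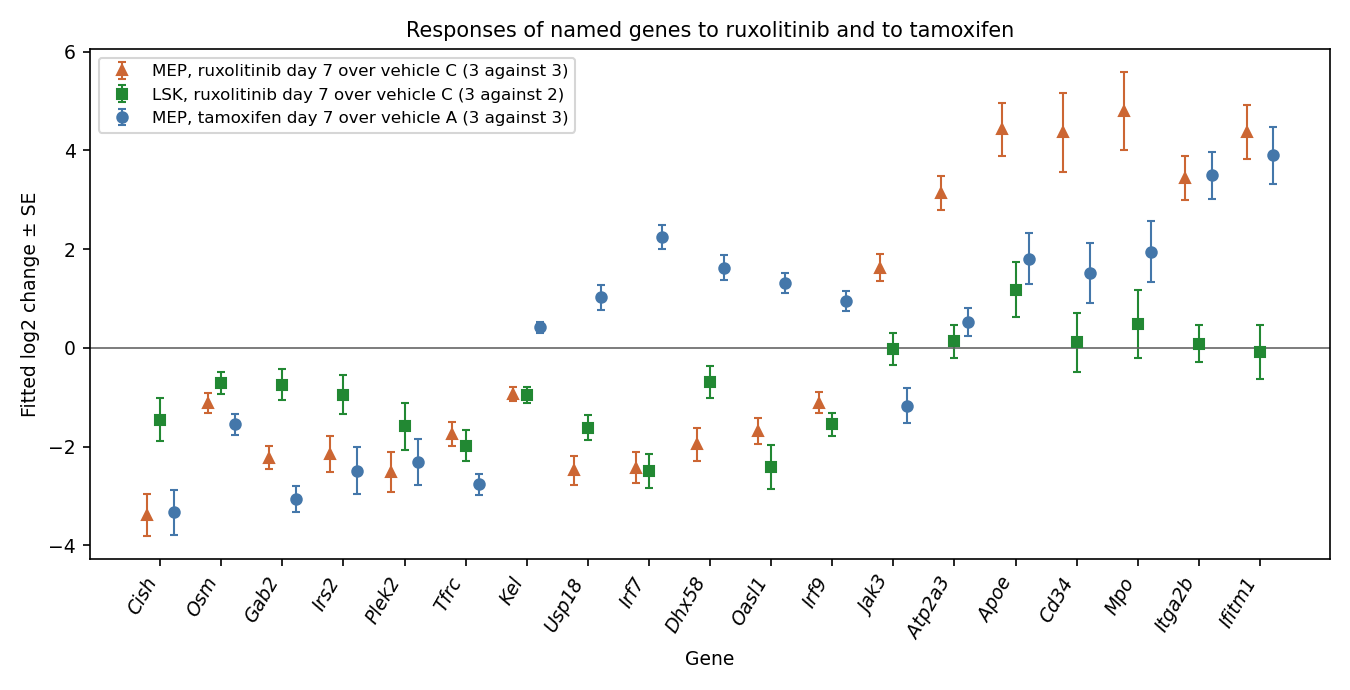
Fitted log2 change ± SE of 19 genes for ruxolitinib in MEP (triangles, 3 against 3 libraries), ruxolitinib in LSK cells (squares, 3 against 2) and tamoxifen day 7 in MEP (circles, 3 against 3). Ruxolitinib is set over batch C vehicle and tamoxifen over batch A vehicle. The interferon genes Usp18, Irf7, Dhx58, Oasl1 and Irf9 lie below 0 with ruxolitinib in both cell types and above 0 with tamoxifen, while Cish, Osm, Gab2, Irs2, Plek2 and Tfrc lie below 0 in all 3.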

How the data were processed

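The authors deposited raw counts per gene symbol for 32 libraries. STAR, featureCounts and mm10 are named per the submitters' processing notes, with versions, annotation and strand setting not given in the sources used here. Overlapping or antisense genes and close copies (globins, ribosomal protein genes) may hold each other's reads. Groups follow the sample titles.

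CPM used library totals for the minimum of 10 and TMM-scaled totals for printed values. Marker sums and the single markers given beside them, Alas2, Socs2, Pim1, Socs3 and values in other groups use plain CPM. Groups were compared with edgeR 4.0.16 (R 4.3.3), a quasi-likelihood F test with TMM factors on the 6 libraries, adjusted by Benjamini-Hochberg at 0.05 over 7670 genes. The differences between responses were interaction contrasts in fits of 11 and 12 libraries, and LSK and tamoxifen changes come from them. The script was tested on simulated data. Alternatives were RLE factors, DESeq2 1.42.0, limma 3.58.1 voom, other filters, a replicate block, leaving out each library, and, chosen after seeing the data, offsets for GC content or transcript length (lowess span 0.3) and robust dispersion. Lengths and positions are from GENCODE M21, in which 90.1% of symbols had one position. Promoter sequence is from RefSeq.

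The genes compared and the gene lists were chosen with earlier results of these data known. Named were Jak2, the 12 largest rises and falls among called genes with separate groups and a gene name, up to 4 called and 2 abundant uncalled members per list, all tested JAK, STAT and STAT5 list members, and the 5 largest differences in each direction. Socs2, Podxl, Mki67, Meis1, Epor, Tmsb4x, Zyx, Slc4a1, Hba-a1, Hbb-b1, Alas2, Plk2, Vwf, Gp9, U6, Gm10800 and 3830403N18Rik were chosen after their values were seen. Some genes that the rule names are not reported here.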

Additional observations from a re-analysis of the deposited data

Results flagged for a closer look

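The ruxolitinib and tamoxifen day 7 responses of MEP were taken over batch C and batch A vehicle. They differed in edgeR's interaction contrast (adjusted p under 0.05, n = 3 in each of 4 groups) for 30 of 59 genes examined. Over all 7670 genes 21.7% passed. Of the 59, 10 were chosen as the largest differences of this contrast, so that they passed was fixed. Of the other 49 genes 20 passed. Many of these 49 were chosen by their ruxolitinib change, which is part of the tested difference. Their share therefore cannot be set against the 21.7%. The libraries were treated as independent, although the vehicle libraries of both batches share animal numbers. No explanation was weighed, and batch and treatment cannot be told apart. Each value is the ruxolitinib log2 change minus the tamoxifen one.

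Interferon genes among these were negative: Irf7 -4.67, Dhx58 -3.57, Oas1a -3.50, Usp18 -3.49, Oasl1 -2.99, Irf9 -2.06 and Stat2 -1.002. In the cytokine pathway the values were Jak2 -1.20, Jak3 2.80, Pim2 1.67 and Ccnd3 2.28. Progenitor and other risen genes were positive, with Cd34 at 2.87, Mpo at 2.86, Apoe at 2.63 and Atp2a3 at 2.62. Iron and red cell genes were split, with Fth1 at 5.13, Tfrc at 1.03 and Kel at -1.34.

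Nuclear and long RNA were negative: Ttn -4.17, Malat1 -3.46, Neat1 -2.90 and Pkhd1l1 -2.15. Fau-ps2, a pseudogene, was at -4.74, Cd59a at -2.98, Edem1 at -2.02 and Cenpf at -0.79. The other large positive values were Thop1 5.01, Zfp574 4.53, Fam195a 4.43 and Spr 4.42.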

How the results depend on the processing

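For ruxolitinib against vehicle in MEP, DESeq2 called 591 genes, a fit of all 16 MEP libraries 848, filterByExpr over 17568 genes 3090, no filter over 32014 genes 4856, a mean CPM of at least 20 (6263 genes) 55 and the transcript length offset 58. RLE factors (92), the GC offset (77) and robust dispersion (105) stayed within 1.5 times of 99. Leaving out 1 library gave 1 to 890. The labels do not say that replicate numbers pair these samples. Deviations of same-numbered libraries correlated at -0.15, 0.33 and 0.09, and those of differently numbered ones at -0.26 to 0.15. So few libraries cannot decide whether they are paired. With the replicate block 1 gene was called. With filterByExpr the calls were 415 higher and 2675 lower, and with no filter 1097 and 3759, since most added genes are near silent. The median log2 change of the 7670 genes was then 0.12 and 0.25, and their calls were 250 higher and 182 lower, or 882 and 160.

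Of the 12 largest rises and 12 largest falls, all kept their direction in every fit that tested them. They were chosen as called genes with separate groups in these libraries, so this was close to fixed in advance and carries no weight. All 24 were called by DESeq2, with RLE factors, in the 16-library fit and without vehicle 3. None was with the replicate block, without ruxolitinib 2 or without ruxolitinib 3, 1 was without vehicle 2, and 18 of 23 were with either offset.

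For the MEP minus LSK difference, with 0 calls, DESeq2 called 41, voom with the animal as a random block 1, the GC offset 1 and robust dispersion 1. Leaving out 1 library gave 0 to 200 calls, and the replicate block 0. For the difference from tamoxifen, the 1665 calls became 1123 to 2182 without 1 library, 2073 with the replicate block, and 1131 to 2153 under the other alternatives. Genes that averaged under 10 CPM over the 6 libraries were tested only with filterByExpr or no filter, and these include genes above 10 CPM in 1 group, such as Socs2.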
